A study of Mus musculus with 20 samples.

Results

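The effect of a diet without tryptophan (Trp) on the ileum was examined in mice whose microbiota had been depleted with antibiotics. The 5 mice fed the Trp-deficient diet with antibiotics (TDD+ABX) were set against the 5 fed the control diet with antibiotics (CD+ABX), which are 10 of the 20 mice of the series, and both groups were taken from the sample titles. The other 10 mice were specific pathogen-free (SPF) animals on the same diets without antibiotics and are used only where stated. The labels give the strain as C57Bl6 and the feeding as 3 weeks. The methods describe females aged 7 weeks that were then fed the diets for those 3 weeks before the ileum was taken. Both diets were the same amino acid diet, made with or without Trp. Both ABX groups drank the same cocktail of ampicillin, vancomycin, gentamycin, metronidazole and neomycin, which the methods state was sweetened with sucrose. Poly-A RNA was sequenced from a short piece of full-thickness terminal ileum, so each value is a mixture of epithelium, lamina propria and muscle, and fewer cells of a type cannot be told apart from less RNA per cell. The study describes 1 experiment, and p-values measure the spread between these mice.

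Trp is an essential amino acid. Cells that run short of an amino acid accumulate uncharged tRNA, which activates the kinase GCN2 and raises translation of the transcription factor ATF4, whose targets import and synthesize amino acids and charge tRNAs. In the gut, Trp is also broken down by IDO1 to kynurenine and by TPH1 to serotonin, and bacteria turn it into indoles that bind the aryl hydrocarbon receptor (AhR).

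Library depth did not separate the groups, with estimated counts from 41490809 to 58662617 per library in CD+ABX mice and from 41198920 to 50576414 in TDD+ABX mice. Some libraries stood apart from their group. On the first principal component of the 10 mice, which held 22.67% of the variance, CD+ABX mouse 5 lay at 12, among the TDD+ABX mice, whereas the other CD+ABX mice lay between -31.97 and -15.93. Its enterocyte markers summed to 45900 counts scaled to library size (CPM), above all 9 others (29400 to 40000 CPM). TDD+ABX mouse 5 lay apart on the second component at -44.07, and its summed B cell markers were 154 CPM against 5.40 to 36.3 CPM in the other mice. CD+ABX mouse 4 stood apart in genes of the circadian clock, given below. Smooth muscle markers summed to 996 and 984 CPM in TDD+ABX mice 1 and 3 and to 1500 CPM in CD+ABX mouse 5, against 1760 to 2890 CPM in the remaining mice, and pancreatic markers were below 1 CPM in each of the 10 mice. Enterocyte, Paneth and goblet cell markers were abundant throughout (enterocyte markers at 29400 to 45900 CPM), and the plot of summed markers shows them by mouse.

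**Figure D1:**
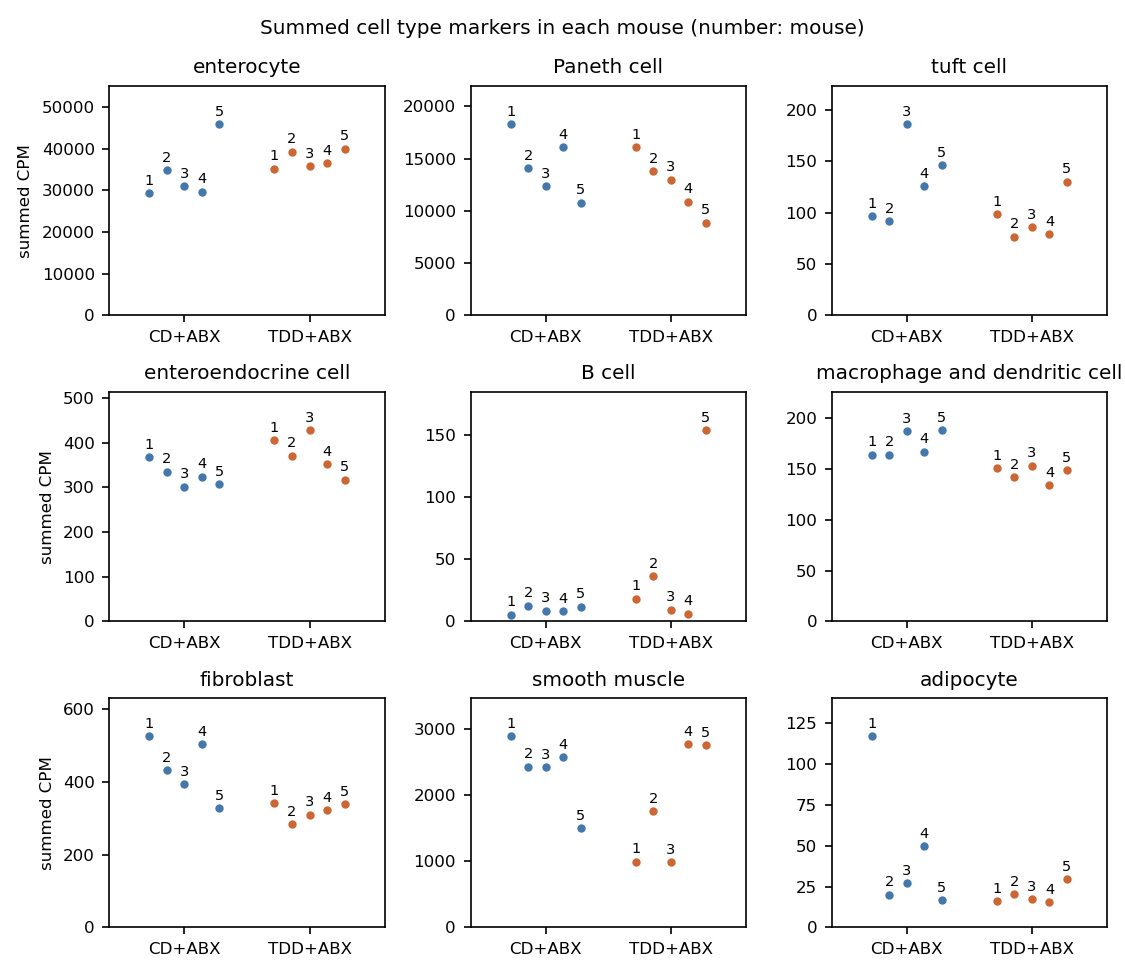
Summed CPM of the tested markers of 9 cell types in each ABX-treated mouse, with the mouse number above each point and the axis starting at 0. Macrophage and dendritic cell markers do not overlap between the groups (164 to 188 CPM in CD+ABX and 134 to 153 CPM in TDD+ABX), and B cell markers are highest in TDD+ABX mouse 5.

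A gene was called when the adjusted p of edgeR's quasi-likelihood test was under 0.05 and the fold change at least 2. TDD feeding with ABX changed 50 of 16306 genes by this rule (0.307% of genes tested), with 24 higher (0.147%) and 26 lower (0.159%). Without the fold limit 268 genes passed (1.64%), of which 102 were higher (0.626%) and 166 lower (1.02%). The median log2 fold change of all genes tested was -0.003. In 45 of the 50 called genes no CD+ABX mouse overlapped a TDD+ABX mouse in CPM, which was also so for 4.78% of all genes tested (2.35% higher and 2.43% lower). An unadjusted p under 0.05 was reached by 7.14% of genes tested in the higher direction and 7.57% in the lower one (edgeR). Counts of list members given below are to be read beside these shares. Of the 50, 20 kept an adjusted p under 0.05 (edgeR) in every one of the 20 fits that left out 1 mouse, namely Chac1, Slc7a5, Nupr1, Abcb1a, Acox2, Hsd17b13, Gsta3, Apol10a, Apol10b, Apol10c-ps, Apol11a, Apol11b, Batf2, Serpina1f, ccdc198, Alppl2, S100g, Cblif, Adad2 and Ak7. The number called was lowest without CD+ABX mouse 4, at 25, and was 33 and 32 without TDD+ABX mouse 1 and CD+ABX mouse 3. It was 49 without CD+ABX mouse 5, of which 30 were higher and 19 lower, and 34 without TDD+ABX mouse 5. The number without the fold limit fell to between 102 and 172 when any 1 TDD+ABX mouse was left out, or CD+ABX mouse 1, 3 or 4, and rose to 486 without CD mouse 2 of the SPF animals, which share the fit.

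**Figure D2:**
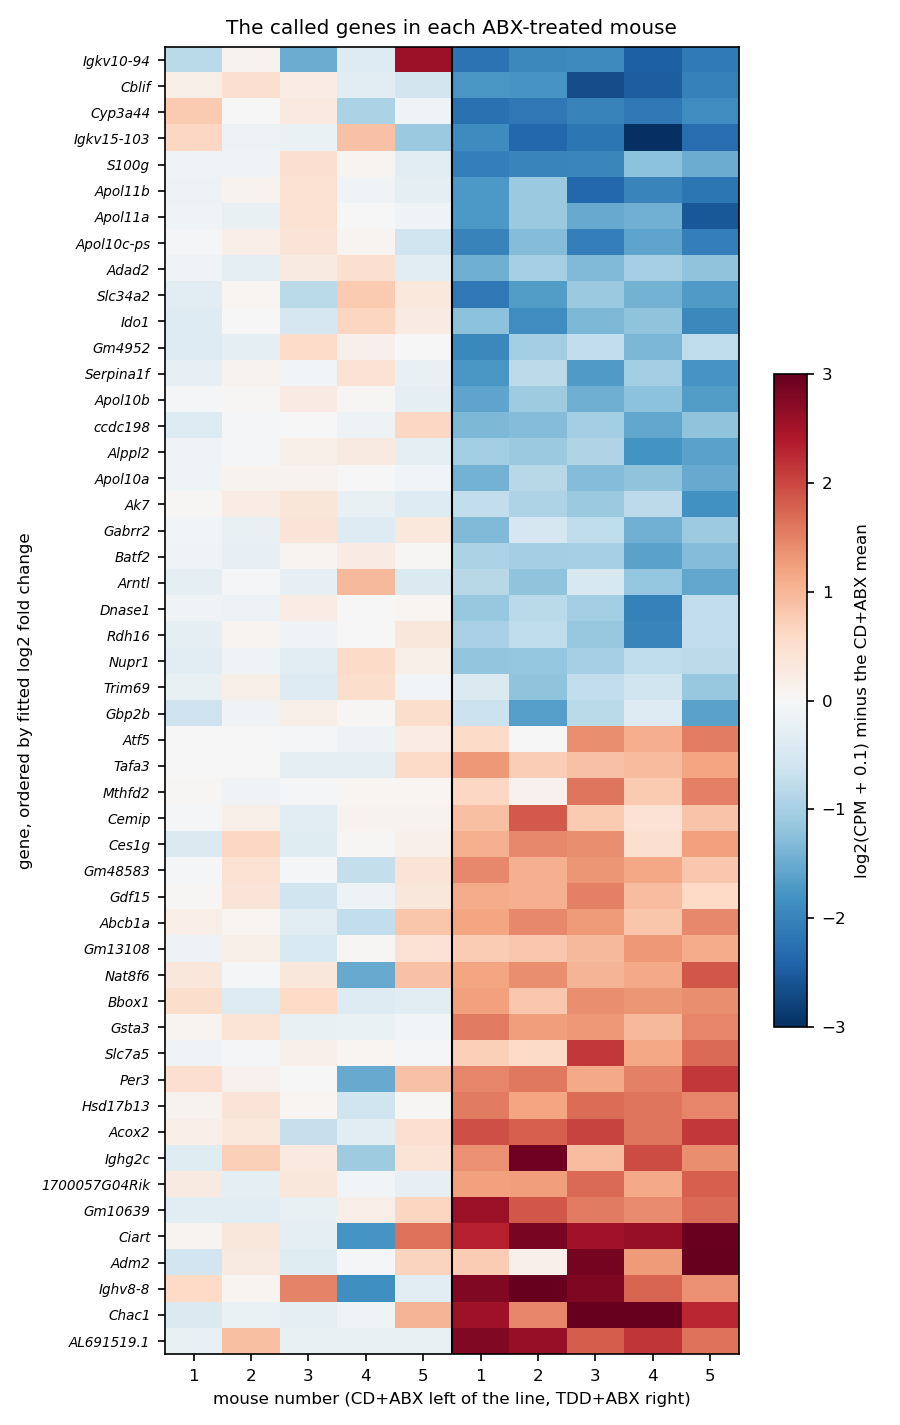
The 50 called genes (rows, ordered by fitted log2 fold change) in each ABX-treated mouse (columns), as log2(CPM + 0.1) minus the mean of the CD+ABX mice, with colours limited at 3 in either direction. The 26 lower genes are blue and the 24 higher genes red in nearly all TDD+ABX mice, and CD+ABX mouse 4 is low for Ciart, Per3 and Nat8f6 and high for Arntl.

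Targets of ATF4 were among the genes that rose. Of 37 tested members of a list of ATF4 targets, 10 were higher and 1 lower with an adjusted p under 0.05 (edgeR). Over all genes tested these shares were 0.626% and 1.02%. Of the 10 and the 1, 5 and 1 were also called. A log2 fold change above 0 was found for 31 of the 37, against 49.2% of all genes tested. The list's median was 0.40, against -0.003 over all genes. Chac1, which degrades glutathione and is induced by ATF4, was at 0.617, 0.743, 0.696, 0.779 and 1.87 CPM in CD+ABX mice 1 to 5 and at 5.48, 2.54, 22.8, 9.14 and 4.5 CPM in TDD+ABX mice 1 to 5. The groups did not overlap, although the SD of 8.16 CPM among the TDD+ABX mice was close to their mean of 8.9 CPM, and the log2 fold change was 3.23 (SE 0.55, adjusted p = 0.00682, edgeR), or 2.5 without TDD+ABX mouse 3. Slc7a5, the light chain of the LAT1 transporter that carries Trp and other large neutral amino acids, was at 6.66 to 7.97 CPM in CD+ABX mice and at 11.8, 10.7, 31.4, 16.2 and 23.7 CPM in TDD+ABX mice, so all TDD+ABX mice were above all controls (log2 fold change 1.38, SE 0.27, adjusted p = 0.0152, edgeR). In TDD+ABX mice, mouse 3 was highest for Chac1 and Slc7a5 and mouse 2 lowest for both.

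Mthfd2, the mitochondrial one-carbon enzyme, was also highest in mouse 3 and lowest in mouse 2 of the TDD+ABX group. It lay at 10.7 to 12 CPM in CD+ABX mice and at 17.6, 12.6, 35.2, 20 and 32.8 CPM in TDD+ABX mice (log2 fold change 1.04, SE 0.22, adjusted p = 0.02, edgeR). Atf5, a transcription factor of the same response, rose from 11.8 to 15.2 CPM in controls to 13.3 to 38.1 CPM, with TDD+ABX mouse 2 inside the control range (1.02, adjusted p = 0.0309). Gdf15, a stress-induced hormone that lowers food intake, rose from a mean of 0.599 ± 0.182 to 1.33 ± 0.323 CPM (SD, n = 5 each; 1.15, adjusted p = 0.0185, edgeR). Of the enzymes of serine synthesis and use on the list, Psat1 (log2 fold change 0.95), Psph (0.40) and Shmt2 (0.53) rose by less than 2-fold, whereas Phgdh, the first enzyme of serine synthesis, did not pass (0.53, adjusted p = 0.319, edgeR). The translation repressor Eif4ebp1 (0.69) and the pseudokinase Trib3 (0.89) also rose by less than 2-fold. Asparagine synthetase, Asns, was at 13.8 to 23.4 CPM in CD+ABX mice and 20.4 to 44.6 CPM in TDD+ABX mice and did not pass (0.88, adjusted p = 0.0525, edgeR), nor did the cystine transporter Slc7a11 (0.85, adjusted p = 0.272).

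Nupr1, a stress-induced chromatin protein also on the ATF4 list, went the other way. It was at 25.7, 29.6, 26.1, 48.3 and 36.7 CPM in CD+ABX mice and at 14.2, 14.5, 16.1, 18.9 and 18.8 CPM in TDD+ABX mice, a fall with no overlap (log2 fold change -1.01, SE 0.18, adjusted p = 0.00729, edgeR). Ddit3, which encodes CHOP and is induced by ATF4 under endoplasmic reticulum stress, was at 24.0 ± 4.71 CPM and 23.4 ± 1.71 CPM (SD, n = 5 each; log2 fold change -0.04, SE 0.12, adjusted p = 0.912, edgeR). Of 19 tested cytosolic aminoacyl-tRNA synthetases, which charge tRNAs, none passed and 18 had a log2 fold change above 0 (median 0.14, 3 of them with an unadjusted p under 0.05, edgeR). The count of ATF4 targets that were higher with an adjusted p under 0.05 ranged from 2 to 14 when single mice were left out, and was 3 without CD+ABX mouse 4, 7 without CD+ABX mouse 5 and 3 without TDD+ABX mouse 5. Mthfd2 missed the threshold without CD+ABX mouse 3 or 4, or without TDD+ABX mouse 3 or 5, Gdf15 without CD+ABX mouse 3 or 4, or without TDD+ABX mouse 3, Atf5 in 7 of the 20 fits and Trib3 in 15, with adjusted p-values up to 0.0526, 0.0618, 0.0871 and 0.119 (edgeR).

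The promoters of Chac1, which rose, and Nupr1, which fell, both hold an exact match to the amino acid response element, the composite site bound by ATF4 and a partner. The letters searched were TTGCATCA on both strands, in the RefSeq window of 300 bases from 250 before to 50 after each annotated start (GRCm38.p6). The stretch around each match is shown because the same site accompanies changes in opposite directions, with the match in capitals.
Chac1, chr2:119351019-119351086, + strand, match 193 bases before the start: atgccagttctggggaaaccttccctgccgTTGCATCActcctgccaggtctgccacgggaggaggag
Nupr1, chr7:126625543-126625610, - strand, match 110 bases before the start: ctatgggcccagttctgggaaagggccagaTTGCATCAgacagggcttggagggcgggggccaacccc
Slc7a11, chr3:50443623-50443709, - strand, matches 66 and 47 bases before the start: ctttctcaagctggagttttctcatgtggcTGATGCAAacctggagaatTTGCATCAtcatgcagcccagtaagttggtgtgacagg
Such a match was found for 7 of the 31 ATF4 targets with a promoter in the table (22.6%) and for 1.03% of all 27025 genes there. A match describes letters only, and one in Slc7a11 accompanies a gene that did not pass.

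Genes of the circadian clock formed the next group. In the clock, ARNTL (BMAL1) with CLOCK activates genes such as the Per, Cry and Ciart repressors through E-boxes, and DBP, TEF and HLF activate while NFIL3 represses through D-boxes. Of 18 core clock genes tested, 5 were higher and 1 lower with an adjusted p under 0.05 (edgeR), with a median log2 fold change of 0.43. Over all genes tested, 0.626% were higher and 1.02% lower at that threshold. Arntl was at 29.7, 34.8, 30.3, 69.6 and 26.5 CPM in CD+ABX mice and at 19.9, 15.3, 25.7, 15.9 and 12 CPM in TDD+ABX mice. It was highest in CD+ABX mouse 4, and the groups did not overlap, with TDD+ABX mouse 3 just under the lowest control (log2 fold change -1.10, SE 0.25, adjusted p = 0.0364, edgeR).

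The repressors moved the other way. Ciart was at 1.30, 1.58, 1, 0.292 and 4 CPM in CD+ABX mice and at 6.61, 9.51, 7.5, 8.04 and 10.3 CPM in TDD+ABX mice (log2 fold change 2.36, SE 0.49, adjusted p = 0.0212, edgeR), a change of 3.01 without CD+ABX mouse 5. Per3 was at 21.5, 16.5, 15, 5.24 and 27.8 CPM and at 41.8, 45.5, 33.5, 42.9 and 66.0 CPM (1.42, SE 0.31, adjusted p = 0.0289). In both genes CD+ABX mouse 4 was the lowest control and CD+ABX mouse 5 the highest, and no control reached a TDD+ABX mouse. Per2 (0.99, adjusted p = 0.0265, edgeR) and Cry2 (0.67, adjusted p = 0.0265) rose by less than 2-fold without overlap. Wee1, a cell cycle kinase under clock control, was the most closely spaced of them, at 11.9 to 14.1 CPM in CD+ABX mice and 17.8 to 23.0 CPM in TDD+ABX mice (0.59, SE 0.07, adjusted p = 0.000468, edgeR).

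CD+ABX mouse 4 enlarged several of these values, and CD+ABX mouse 5 made some of them smaller. In CD+ABX mouse 4, Dbp was 3.99 CPM against 31.3 to 63.9 CPM in the other controls and 78.8 to 126 CPM in TDD+ABX mice. Nfil3 in mouse 4 was 19.1 CPM against 3.39 to 5.68 CPM in the other controls and 1.86 to 4.28 CPM in TDD+ABX mice. Neither gene passed (Dbp 1.59, adjusted p = 0.0990 and Nfil3 -1.37, adjusted p = 0.0699, edgeR), and without this mouse they stood at 1.30 and -0.67. Arntl without it changed by -0.77 (adjusted p = 0.0846, edgeR) and also missed the threshold without CD+ABX mouse 2 or TDD+ABX mouse 1, 2, 4 or 5. Per3 missed it without CD+ABX mouse 2 or 3, or without TDD+ABX mouse 1, 2, 4 or 5 (adjusted p up to 0.0791, edgeR) and Ciart without CD+ABX mouse 1 or 3 (up to 0.0640). Per2 missed it without CD+ABX mouse 1 or 3, or without TDD+ABX mouse 2, 4 or 5 (up to 0.0651, edgeR), and Cry2 missed it in 7 of the 20 fits (up to 0.0854). Without CD+ABX mouse 4, 3 core clock genes were higher and none lower with an adjusted p under 0.05, and without TDD+ABX mouse 5, 1 was higher. Without CD+ABX mouse 5, 6 were higher and 1 lower (edgeR). Leaving out that mouse moved Dbp to 1.90, Nfil3 to -1.56 and Per3 to 1.66, whereas Per3 stood at 1.18 without CD+ABX mouse 4. Nr1d1, Per1 and Cry1 did not pass (log2 fold changes 0.34, 0.53 and 0.02).

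The promoters of the 2 called repressors carry the clock's own sites, and they are shown for that reason. Ciart holds 3 copies of the E-box CACGTG and Per3 2 copies of the D-box, searched as TTATGTAA or TTACGTAA on both strands, and copies are in capitals.
Ciart, chr3:95882237-95882374, - strand, first E-box 116 and last 44 bases before the start: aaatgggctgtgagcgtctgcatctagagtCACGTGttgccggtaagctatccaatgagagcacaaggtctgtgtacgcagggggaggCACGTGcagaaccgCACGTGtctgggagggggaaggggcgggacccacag
Per3, chr4:151044786-151044900, - strand, D-boxes 205 and 158 bases before the start: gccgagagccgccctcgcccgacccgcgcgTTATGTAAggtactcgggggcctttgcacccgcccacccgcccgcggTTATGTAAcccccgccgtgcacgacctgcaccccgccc
An E-box was found for 4 of 13 core clock genes with a promoter in the table (30.8%) and for 8.09% of all genes, and a D-box for 1 of the 13 (7.69%) and 1.23% of all genes. The sites were not limited to genes that rose. E-boxes were found for 11.1% of called higher genes, 14.3% of called lower genes and 10.8% of genes tested. For the D-box these shares were 11.1%, 4.76% and 0.941%, from 2 of 18 called higher and 1 of 21 called lower genes. In each case the match describes letters and not binding.

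**Figure D3:**
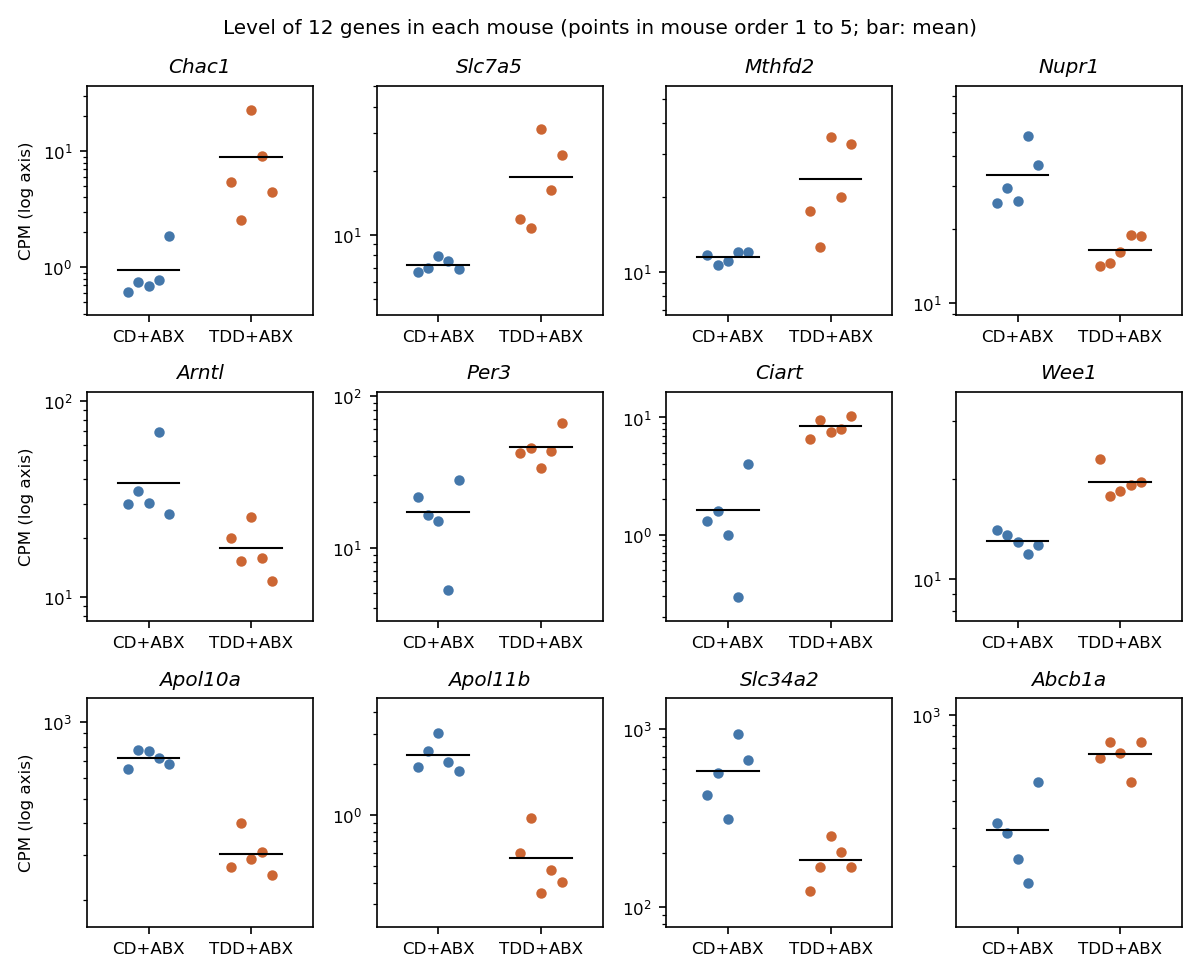
CPM on a log axis of 12 genes in each CD+ABX (blue) and TDD+ABX (orange) mouse, in mouse order 1 to 5 within a group, with a bar at the mean. The groups do not overlap in any of the 12, and CD+ABX mouse 4 is the highest control for Arntl and the lowest for Per3 and Ciart.

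The apolipoprotein L family, intracellular lipid-binding proteins of which several are interferon-inducible, held the most regular falls. Of 12 members tested, 6 were lower with an adjusted p under 0.05 (edgeR), 5 of them called, and none was higher. Over all genes tested, 1.02% were lower at that threshold. Apol10a, the most abundant, was at 655, 774, 769, 720 and 682 CPM in CD+ABX mice and at 271, 402, 290, 309 and 251 CPM in TDD+ABX mice. All TDD+ABX mice were thus well below all controls (log2 fold change -1.24, SE 0.17, adjusted p = 0.00108, edgeR). Apol10b went from 10.4 to 15 CPM down to 3.93 to 5.97 CPM (-1.41, SE 0.16, adjusted p = 0.000468) and Apol10c-ps, an annotated pseudogene, from 22.8 to 44.9 CPM down to 8.17 to 13.9 CPM (-1.80, SE 0.23, adjusted p = 0.000943). Apol11a and Apol11b were lower in abundance, at 1.01 to 1.66 and 1.81 to 3.03 CPM in controls, and fell by 1.86 and 1.99 on the log2 scale (adjusted p = 0.00560 and 0.00389, edgeR). These 5 genes lie near each other on chromosome 15 (from Apol10a at chr15:77477047-77491069, + strand, to Apol10c-ps at chr15:77656001-77659841, - strand, GRCm38), and reads could have been divided among such similar copies. Apol7c fell by less than 2-fold (-0.84, adjusted p = 0.0405). Not all of the family moved, since Apol9a and Apol9b were at 0.10 and 0.13.

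The called apolipoprotein L promoters share more than the family name. Each of the 4 with an entry held a match to the core of the interferon-stimulated response element on either strand, shown in capitals in a window of 70 bases.
Apol10a, chr15:77476966-77477035, + strand, match 51 bases before the start: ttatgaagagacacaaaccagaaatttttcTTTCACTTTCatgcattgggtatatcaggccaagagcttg
Apol11a, chr15:77508189-77508258, + strand, match 50 bases before the start: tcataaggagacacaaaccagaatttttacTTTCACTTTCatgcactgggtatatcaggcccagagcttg
Apol11b, chr15:77643297-77643366, - strand, match 50 bases before the start: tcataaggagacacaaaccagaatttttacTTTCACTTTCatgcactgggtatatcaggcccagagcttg
Apol10b, chr15:77596090-77596159, - strand, match 4 bases before the start: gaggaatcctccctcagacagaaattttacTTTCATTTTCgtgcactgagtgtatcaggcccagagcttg
The windows of Apol11a and Apol11b are alike at all 70 bases, and that of Apol10a differs from them at 7 bases and that of Apol10b at 19. The element was present for 8 of 10 tested family members with a promoter in the table (80.0%), so members that were not called held it too. It was present for 5 of the 21 called lower genes (23.8%), for none of the 18 called higher genes and for 3.99% of all genes. The fifth called lower gene with it was Gbp2b, a guanylate-binding protein that fell to its 2-fold limit with overlapping groups (3.53 to 7.90 CPM against 1.68 to 4.14 CPM, log2 fold change -1, adjusted p = 0.0385, edgeR) and missed the threshold in 8 of the 20 fits without 1 mouse (adjusted p up to 0.0857).

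Interferon-stimulated genes as a list did not pass singly. All 41 tested members had a log2 fold change below 0, with a median of -0.41 against -0.003 over all genes. An unadjusted p under 0.05 was reached by 15 of them, against 7.57% of all genes tested in that direction (edgeR). None had an adjusted p under 0.05 (edgeR). The nearest were the chemokine Cxcl9 (-0.89, adjusted p = 0.0530) and the nucleic acid sensor Zbp1 (-1.24, adjusted p = 0.0576, edgeR). All 41 also stayed below 0 in each fit that left out 1 mouse, with medians from -0.54 to -0.34. Batf2, an interferon-inducible transcription factor outside that list, fell from 23.4 ± 3.11 to 10.4 ± 1.85 CPM (SD, n = 5 each; -1.17, SE 0.17, adjusted p = 0.00187, edgeR). The 10 genes of MHC class I presentation were all below 0 too (median -0.32), none of them past the threshold, 6 with an unadjusted p under 0.05, and Psmb9 of the immunoproteasome nearest (-0.53, adjusted p = 0.0565). Beside these, macrophage and dendritic cell markers summed to 164 to 188 CPM in CD+ABX mice and 134 to 153 CPM in TDD+ABX mice. None of the 12 markers of that list passed, 10 of them had a log2 fold change below 0, and the part of these cells in the interferon genes was not tested.

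Gasdermin C genes, epithelial relatives of the pore-forming gasdermins, were low but scattered. Gsdmc4 was at 31.0, 40, 117, 148 and 71.7 CPM in CD+ABX mice and at 34.8, 9.15, 9.59, 10.4 and 32.4 CPM in TDD+ABX mice, so the groups overlapped, and it did not pass (log2 fold change -2.08, SE 0.52, adjusted p = 0.0501, edgeR). All 4 family members were below 0 (median -2.02), each with an unadjusted p under 0.05. Tuft cell markers, whose cells drive type 2 epithelial responses, were below 0 in 7 of 7 tested cases (median -0.44, summed 92.0 to 186 CPM against 76.7 to 130 CPM), none past the threshold. The antimicrobial lectin Reg3g was at 47.2 to 104 CPM and 44.0 to 101 CPM (-0.41, SE 0.56, adjusted p = 0.792, edgeR). Of 8 Paneth cell markers, Defa17 fell by 0.58 on the log2 scale (from 530 to 833 CPM down to 383 to 557 CPM, adjusted p = 0.0359, edgeR), with overlapping groups and near-identical defensin copies, and it missed the threshold in 7 of the 20 fits without 1 mouse (up to 0.0986).

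Single genes outside these groups also fell. Slc34a2, the sodium-phosphate cotransporter of the apical membrane, was at 427, 564, 311, 934 and 670 CPM in CD+ABX mice and at 123, 169, 251, 203 and 168 CPM in TDD+ABX mice. No TDD+ABX mouse reached the lowest control (log2 fold change -1.67, SE 0.36, adjusted p = 0.0265, edgeR), although the adjusted p passed 0.05 when CD+ABX mouse 4 was left out, and also for TDD+ABX mouse 1, 2, 4 or 5 (up to 0.0803). S100g, the calcium-binding protein calbindin-D9k, was scarce in the ileum at 0.962 to 1.78 CPM and fell to 0.227 to 0.478 CPM (-2.01, SE 0.27, adjusted p = 0.00108). Alppl2, an alkaline phosphatase, fell from 7.07 to 10.6 CPM down to 2.47 to 4.61 CPM (-1.28, SE 0.20, adjusted p = 0.00315, edgeR). Dnase1, the secreted nuclease, went from 253 ± 27.1 to 119 ± 35 CPM (SD, n = 5 each; -1.09, adjusted p = 0.0356), lost in 7 of the 20 fits without 1 mouse (up to 0.0871, edgeR). Rdh16, a retinol dehydrogenase, fell from 10 ± 1.70 to 4.75 ± 1.42 CPM (-1.08, adjusted p = 0.0185), lost without TDD+ABX mouse 3 (0.0514).

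Further called falls included scarce transcripts. Cblif, gastric intrinsic factor, was at 0.509 to 1.15 CPM and 0.0413 to 0.165 CPM (log2 fold change -2.88, SE 0.48, adjusted p = 0.00560, edgeR). Cyp3a44, a cytochrome P450, was at 0.545 to 2.03 CPM and 0.165 to 0.239 CPM (-2.65, adjusted p = 0.0309) and was lost in 7 of the 20 fits without 1 mouse (up to 0.0800, edgeR). Serpina1f fell by 1.48 and ccdc198 by 1.35 on the log2 scale (adjusted p = 0.0132 and 0.00389, edgeR), both without overlap. Of the 50 called genes, 10 had a mean under 1 CPM in both groups. Called genes not described elsewhere were Adad2, Gm4952, Ak7, Gabrr2 and Trim69 among the lower ones, and Tafa3, Cemip, Gm48583, Gm13108, 1700057G04Rik, Adm2 and AL691519.1 among the higher ones, the last with counts in a single CD+ABX mouse.

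Several single enzymes and a transporter rose, while few members of the lists nearest to them passed. None of 11 genes of bile acid handling (median -0.09) or of 22 of fatty acid oxidation (median -0.02) passed. An unadjusted p under 0.05 was reached by 3 and 6 of them, against 2400 of all 16306 genes tested (edgeR). Of 52 cytochrome P450 genes none was higher and 1 lower with an adjusted p under 0.05, against 1.02% of all genes tested lower (edgeR). Acox2, the peroxisomal oxidase of branched fatty acids and bile acid precursors, was at 5.73, 6.23, 3.07, 3.93 and 7.09 CPM in CD+ABX mice and at 19.2, 17.4, 20.5, 15.4 and 22.0 CPM in TDD+ABX mice. Every TDD+ABX mouse was more than 2-fold above every control (log2 fold change 1.86, SE 0.22, adjusted p = 0.000468, edgeR). Hsd17b13, a lipid droplet dehydrogenase, was almost as regular, at 13.4 to 26.9 CPM and 46.2 to 65.4 CPM (1.48, SE 0.18, adjusted p = 0.000468). Abcb1a, the P-glycoprotein pump that returns drugs to the lumen, was at 318, 286, 217, 167 and 490 CPM in controls and at 629, 748, 669, 491 and 748 CPM in TDD+ABX mice, so that CD+ABX mouse 5 was just under TDD+ABX mouse 4 (1.15, SE 0.21, adjusted p = 0.00990, edgeR).

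Gsta3, a glutathione transferase, rose from 2.93 to 4.58 CPM to 6.79 to 10.3 CPM (log2 fold change 1.33, SE 0.20, adjusted p = 0.00297, edgeR). Bbox1, the last enzyme of carnitine synthesis, rose from 0.681 ± 0.289 to 1.66 ± 0.267 CPM (SD, n = 5 each; 1.28, adjusted p = 0.0212) and was lost without CD+ABX mouse 2 or 4, or without TDD+ABX mouse 3 (up to 0.0686, edgeR). The carboxylesterase Ces1g overlapped between groups (1.92 to 4.05 CPM and 3.70 to 7.21 CPM, 1.14, adjusted p = 0.0494) and held in 6 of the 20 fits without 1 mouse, as Nat8f6 did in 5 (1.24, adjusted p = 0.0415, up to 0.129 and 0.0966, edgeR). Gm10639, a predicted gene, rose from 0.240 to 0.566 CPM to 1.03 to 2.46 CPM (2.10, adjusted p = 0.0167, lost without CD+ABX mouse 3 or TDD+ABX mouse 1). Of 55 conjugation enzymes and carboxylesterases tested, 3 were higher with an adjusted p under 0.05 (Gsta3, Ces1g and Ugt1a6a) and none lower (edgeR), with a median of 0.12. The shares of all genes tested at that threshold were 0.626% higher and 1.02% lower.

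Genes of cholesterol synthesis had small fold changes, mostly above 0. Of 26 genes of the pathway, 25 had a log2 fold change above 0 (median 0.34), 5 were higher with an adjusted p under 0.05 (edgeR), none was lower, and none reached 2-fold. Over all genes tested, 49.2% were above 0 and 0.626% were higher at that threshold. Fdps, which makes farnesyl diphosphate, went from 46.3 to 60.9 CPM to 68.1 to 92.2 CPM (0.65, SE 0.14, adjusted p = 0.0252, edgeR). Cyp51, Lss and Hsd17b7, later steps of the pathway, rose by 0.56, 0.61 and 0.32 (adjusted p = 0.0423, 0.0395 and 0.0260). Of the 26 genes, 12 did not overlap between groups and were higher, against 2.35% of all genes tested. The number that passed was 1 without CD+ABX mouse 4, 1 without TDD+ABX mouse 5 and 5 without CD+ABX mouse 5.

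Fold changes of ribosomal protein genes were smaller still. Of 80 cytosolic ribosomal protein genes tested, 77 had a log2 fold change above 0 (median 0.20), against 49.2% of all genes tested. Without overlap between groups, 50 were higher, against 2.35% of all genes tested. The threshold was passed by 1 of the 80 (edgeR), namely Rpl17. It was at 381 to 426 CPM in CD+ABX mice and 488 to 520 CPM in TDD+ABX mice (0.28, SE 0.07, adjusted p = 0.0347). Rpl17 missed the threshold in 9 of the 20 fits without 1 mouse (up to 0.0860, edgeR), among which the number of ribosomal protein genes that passed ran from 0 to 29.

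**Figure D4:**
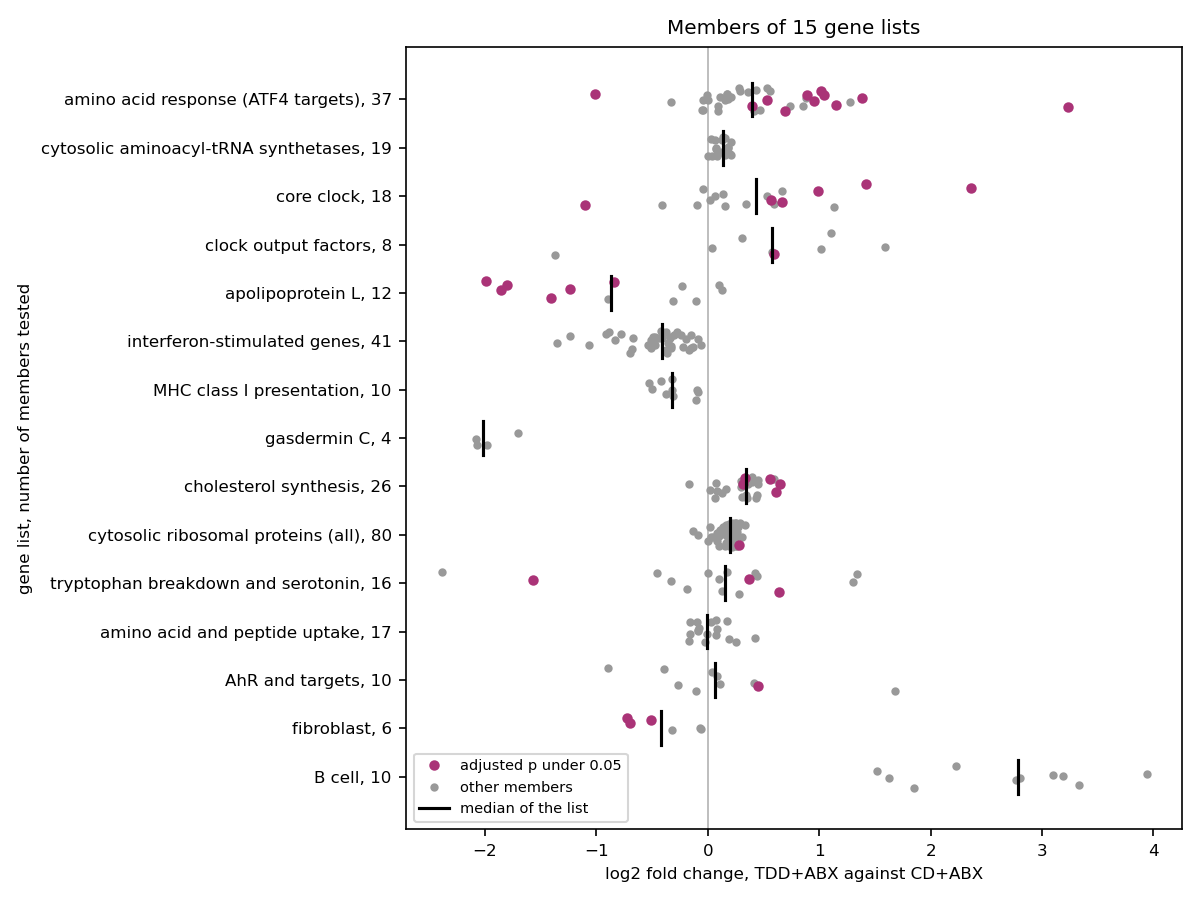
Log2 fold change (TDD+ABX against CD+ABX) of each tested member of 15 gene lists, with members of an adjusted p under 0.05 in purple and the list's median as a bar. ATF4 targets, core clock, cholesterol synthesis and ribosomal protein genes lie mostly right of 0, and apolipoprotein L, interferon-stimulated and gasdermin C genes left of it.

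Trp metabolism was represented on both sides. Ido1, which starts kynurenine formation and is induced by interferon gamma, was at 7.06, 9.21, 6.53, 14.6 and 11.0 CPM in CD+ABX mice and at 3.91, 2.48, 3.60, 3.98 and 2.37 CPM in TDD+ABX mice, with no overlap (log2 fold change -1.57, SE 0.38, adjusted p = 0.0415, edgeR). The kynurenine aminotransferases Kyat1 and Kyat3, which turn kynurenine into kynurenic acid, rose by less than 2-fold (0.64, adjusted p = 0.0415 and 0.37, adjusted p = 0.0471, edgeR). Ido1 and Kyat1 each kept an adjusted p under 0.05 in 7 of the 20 fits without 1 mouse and Kyat3 in 5 (up to 0.118, 0.118 and 0.131). Tph1, which starts serotonin synthesis in enterochromaffin cells, was at 5.43 to 9.21 CPM and 6.51 to 13.5 CPM and did not pass (0.42, adjusted p = 0.463, edgeR). Of 17 transporters of amino acid and peptide uptake, none passed, 2 had an unadjusted p under 0.05 (edgeR) and the median was -0.01. The brush border carrier of neutral amino acids Slc6a19 was at 1090 ± 323 and 1150 ± 208 CPM (SD, n = 5 each; 0.08, SE 0.20, adjusted p = 0.889, edgeR) and the basolateral aromatic amino acid carrier Slc16a10 at 277 ± 42.3 and 248 ± 32.2 CPM (-0.16, SE 0.15, adjusted p = 0.671).

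Of 10 AhR genes and targets, 1 was higher with an adjusted p under 0.05, against 0.626% of all genes tested (edgeR). Ugt1a6a, a glucuronosyltransferase, rose from 7.86 to 10.1 CPM to 10.3 to 14.0 CPM (log2 fold change 0.45, SE 0.10, adjusted p = 0.0293, edgeR), and it missed the threshold without CD+ABX mouse 2, 3 or 5, or without TDD+ABX mouse 2, 3 or 4 (up to 0.0806). Its first exon is one of several that share the rest of the Ugt1a transcripts, so its count is uncertain. Cyp1a1, the usual readout of AhR activity, was at or below 0.0779 CPM in all 10 mice, which is too low for a comparison. Foxp3, the factor that defines regulatory T cells, was at 0.168 to 0.307 CPM and 0.124 to 0.527 CPM (0.02, SE 0.48, adjusted p = 0.992, edgeR), so a change in these cells was not detectable at this depth in whole tissue. The glucocorticoid target Fkbp5 was at 71.4 to 144 CPM in controls and 98.2 to 184 CPM in TDD+ABX mice and did not pass (0.75, SE 0.24, adjusted p = 0.118, edgeR), and none of 18 genes of glucocorticoid response and synthesis did, 3 of them with an unadjusted p under 0.05.

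Some fibroblast markers were lower. Of the 6 tested, Col1a1, Col3a1 and Col1a2 were lower with an adjusted p under 0.05 (edgeR), by 0.73, 0.70 and 0.51 on the log2 scale. That threshold was passed by 1.02% of all genes tested in the lower direction. Col1a1 was at 60.2, 41.8, 42.7, 49.9 and 32.5 CPM in CD+ABX mice and at 30.3, 22.9, 27.6, 27.2 and 28.8 CPM in TDD+ABX mice, so the lowest control, mouse 5, was just above the highest TDD+ABX mouse (SE 0.14, adjusted p = 0.0132). Col3a1 and Col1a2 overlapped between groups (adjusted p = 0.0359 and 0.0415) and missed the threshold in 8 and 10 of the 20 fits without 1 mouse (up to 0.101 and 0.112, edgeR). Beside this, summed fibroblast markers were 327 to 525 CPM in CD+ABX mice and 283 to 342 CPM in TDD+ABX mice, smooth muscle markers 1500 to 2890 CPM and 984 to 2770 CPM, and adipocyte markers 16.7 to 117 CPM and 15.3 to 29.4 CPM. The part of tissue composition in the collagen values was not tested.

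Immunoglobulin genes went in both directions, 1 segment at a time. Igkv15-103 fell from 19.9, 11.3, 11.1, 23.5 and 5.85 CPM in CD+ABX mice to 3.39, 2.44, 2.77, 0.935 and 2.56 CPM in TDD+ABX mice (log2 fold change -2.57, SE 0.59, adjusted p = 0.0364, edgeR). Igkv10-94 depended most on CD+ABX mouse 5, which had 45.9 CPM against 2.64 to 8.25 CPM in the other controls and 1.31 to 1.94 CPM in TDD+ABX mice. The change of -2.99 (adjusted p = 0.0449) became -1.63 without that mouse (0.121, edgeR). Igkv10-94 missed the threshold in 13 of the 20 fits without 1 mouse. The heavy chain constant gene Ighg2c rose from 0.136 to 0.719 CPM to 0.848 to 3.68 CPM (1.98, adjusted p = 0.0293), and Ighv8-8 from 0.0973 to 1.86 CPM to 1.72 to 16.3 CPM with overlap (2.89, adjusted p = 0.0415, edgeR, or 2.07 without TDD+ABX mouse 2). Igkv15-103 missed the threshold in 8 of the 20 fits without 1 mouse, Ighg2c in 5 and Ighv8-8 in 13 (up to 0.0981, 0.0788 and 0.117), and variable segments have near-identical copies among which reads could be divided. Of 89 kappa and 92 heavy variable segments tested, 2 and 1 were called, against 0.307% of all genes tested, with medians of 0.01 and -0.03. B cell markers were all above 0 (10 of 10, median 2.78, or 1.34 without TDD+ABX mouse 5), none with an adjusted p under 0.05 and 8 with an unadjusted p under 0.05 (edgeR), and their part in the immunoglobulin values was not tested.

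The same diet contrast was measured in other mice, the SPF animals of the same fit, so the called genes can be set beside a pair of groups that shares no mouse with them. The 2 contrasts do share the fit's estimate of each gene's spread, so they are not independent of each other. Of the 50 genes called with ABX, 44 had the same sign in SPF mice, and 36 of these had an adjusted p under 0.05 there (edgeR). Of all genes tested, 14.4% passed that threshold in SPF mice, counted in either direction. The share of all genes tested with the same sign in both settings is not given here. The called Apol, Slc34a2, S100g, Acox2, Hsd17b13 and Abcb1a changes were among the 36. Their SPF log2 fold changes were -1.15 for Apol10a, -1.87 for Slc34a2, -2.47 for S100g, 2.26 for Acox2, 1.64 for Hsd17b13 and 1.52 for Abcb1a. The 6 genes of opposite sign were Chac1, AL691519.1, Ighv8-8, Ighg2c, Igkv10-94 and Igkv15-103.

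Whether the diet acted differently in the 2 settings was tested by the interaction term of the fit. With this test 4 of 16306 genes passed at 2-fold or more (0.0245%), namely Chac1, Igkv15-103, Fkbp5 and Gzmk, and the first 2 were called here. Chac1 changed by 3.23 with ABX and by -1.78 in SPF mice, a difference of 5.01 (adjusted p = 0.0496, edgeR). Trib3, of the same list, rose by 1.22 in SPF mice (adjusted p = 0.00131, edgeR) and by 0.89 with ABX. Fkbp5 rose by 2.67 in SPF mice against the 0.75 above (difference -1.92, adjusted p = 0.0496). No gene passed this test with RLE scaling, with limma-voom, with a filter on 5 mice or with no filter, whereas 1446 genes had an unadjusted p under 0.05 in the edgeR fit reported here. Slc7a5 and Mthfd2, which rose with ABX and stood at 0.43 and 0.07 in SPF mice, had unadjusted interaction p-values of 0.0232 and 0.00477 that did not survive adjustment (0.448 and 0.294, edgeR), so a difference between the settings was not shown for them.

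**Figure D5:**
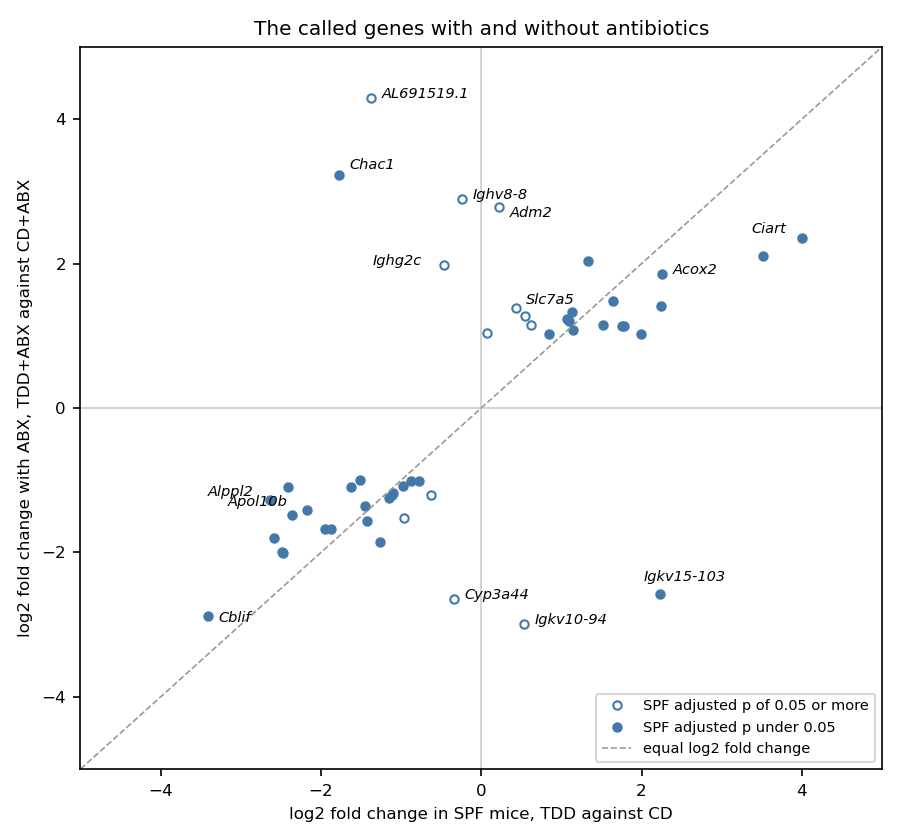
Log2 fold change of the 50 called genes with ABX (vertical) against that in SPF mice (horizontal), filled where the SPF adjusted p is under 0.05, with a dashed line of equal change. Of the 50 genes, 44 lie in the quadrants of equal sign, and Chac1 and Igkv15-103 lie filled in the others.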

How the data were processed

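Full-thickness terminal ileum from 20 mice was profiled by poly-A RNA-seq, and the 10 ABX-treated mice are described here. The authors deposited estimated counts, made with kallisto 0.44.0 on GRCm38 and given per gene. They also deposited TPM values, which were not used for tests. The counts, whole numbers in the file, were scaled by TMM and fitted in 1 edgeR 4.0.16 quasi-likelihood model (robust) with the 4 groups, with R 4.3.3. Genes had to reach 0.5 CPM in 1 mouse or more, which left 16306 of 35204. P-values were adjusted by Benjamini and Hochberg over all of them. A gene was called at an adjusted p under 0.05 and a fold of at least 2, and changes are log2 fold changes of TDD+ABX against CD+ABX. CPM are TMM-scaled. A fold change from estimated counts can be uncertain for genes that share sequence.

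The comparison, gene lists and tests were chosen with earlier results of these data known. Genes named with values were the 12 highest and 12 lowest called genes without overlap and with a mean of at least 1 CPM in a group, up to 5 list members with an adjusted p under 0.05, and a list of single genes. Others with values (Atf5, Psat1, Psph, Phgdh, G6pc, Shmt2, Eif4ebp1, Cry1, Apol7c, Apol9a, Apol9b, Alppl2, Batf2, Dnase1, Rdh16, Gbp2b, Cxcl9, Zbp1, Psmb9 and Gzmk) were chosen after their values were seen. The model was tested on simulated data for this comparison, of 16306 genes, with 50 changed genes at each fold. The changed genes were drawn only from genes that were not scarce. Recovery meant an adjusted p under 0.05 in the right direction (edgeR), without the fold limit. By this measure 27 were recovered at 1.5-fold, 39 at 2-fold, 47 at 3-fold and 47 at 4-fold. An adjusted p under 0.05 was also reached by 4 unchanged genes (edgeR). Promoter windows and their coordinates came from RefSeq (GRCm38.p6), and the loci of whole genes came from GENCODE (GRCm38). Alternatives were other scalings, filters, fold limits, DESeq2 1.42.0, limma-voom (limma 3.58.1), the ABX groups alone, the replicate number as a block, and leaving out each mouse. Figures used matplotlib 3.10.9. Some list members are not reported here.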

Additional observations from a re-analysis of the deposited data

Results flagged for a closer look

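Single mice far from the other 4 of their group were sought by the gap to the nearest value over the group's range (limit 0.71). Gap and range were taken on the log2 scale of CPM, whereas the levels printed below are plain CPM. Such mice appeared in 9 of 136 sets of values, where chance alone gives about 1 in 20. In CD+ABX mouse 4, Arntl was the highest value of its group (69.6 CPM, ratio 0.719), and Dbp (3.99 CPM, 0.742) and Bhlhe41 (0.389 CPM, 0.743) were the lowest. Chac1 was highest in CD+ABX mouse 5 (1.87 CPM, 0.794) and Fkbp5 in CD+ABX mouse 2 (144 CPM, 0.81). Among TDD+ABX mice, Cry2 was highest in mouse 5 (38.9 CPM, 0.872), Per1 was highest in mouse 1 (63.5 CPM, 0.782), Bbox1 was lowest in mouse 2 (1.2 CPM, 0.745) and Igkv15-103 was lowest in mouse 4 (0.935 CPM, 0.743).

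The effect of the diet differed between ABX-treated and SPF mice by the interaction test for Chac1 (difference of log2 fold changes 5.01), Igkv15-103 (-4.80) and Fkbp5 (-1.92), each with an adjusted p of 0.0496 (edgeR). None of these calls held with RLE scaling, the filter on 5 mice, limma-voom or no filter on low counts, under each of which 0 genes passed.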

How the results depend on the processing

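The 50 called genes (24 higher, 26 lower) and the 268 with an adjusted p under 0.05 became 98 (49 and 49) and 613 with DESeq2, and 35 (19 and 16) and 159 with no filter on low counts. A 1.5-fold limit gave 121 called genes (56 higher, 65 lower). RLE or upper-quartile scaling, limma-voom, a filter on 5 mice, the ABX groups alone and a non-robust spread, the last chosen after seeing the data, gave 44 to 54. The genes were not all the same ones. The 45 called from the ABX groups alone held 33 of the 50, and the 44 called with limma-voom held 37. Leaving out 1 mouse gave 25 to 59 called genes, 8 to 30 higher, 17 to 31 lower and 102 to 486 with an adjusted p under 0.05. The number higher was 13 without CD+ABX mouse 1 and 14 without TDD+ABX mouse 3. The share of calls that were higher, 48.0%, was 34.2%, 31.2% and 32.0% without CD+ABX mouse 1, 3 or 4 and 61.2% without CD+ABX mouse 5. The cause of these shifts was not tested.

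ABX-treated mice with the same replicate number did not deviate together (correlations from -0.141 to 0.0732, 0 of 5 over 0.1, against 2 of 20 for other numbers). So few pairs cannot decide whether a number marks a shared cage or day. With the replicate block, 27 genes were called (12 higher, 15 lower) and 113 had an adjusted p under 0.05. The 4 genes past the interaction test became 51 with DESeq2, and 0 with RLE scaling, a filter on 5 mice, limma-voom, no filter or the replicate block, against 1446 genes with an unadjusted interaction p under 0.05 in edgeR. Sign changes were limited to values that did not pass: Foxp3 (-0.15 with limma-voom, -0.05 with the block, -0.42 to 0.19 without 1 mouse), Ddit3 (-0.11 to 0.09 without 1 mouse, above 0 without CD+ABX mouse 5), and the interactions of Slc7a11 (-0.13) and Bhlhe41 (-0.03) with limma-voom. With 5 mice a group, changes under 2-fold were often missed in the simulated data, and scarce genes such as Foxp3 and Cyp1a1 are limited by depth.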

Other observations

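The 12 enteroendocrine cell markers all had a log2 fold change above 0 (median 0.27), none with an adjusted p under 0.05 (edgeR). An unadjusted p under 0.05 was reached by 4, against 7.14% of all genes tested in the higher direction (edgeR). The 12 markers summed to 302 to 367 CPM in CD+ABX mice and 317 to 428 CPM in TDD+ABX mice, so the groups overlapped. Of 77 nuclear genes of the respiratory chain, 61 were below 0 with a median of -0.06, whereas 49.2% of all genes tested were above 0. Of the 77, 8 were lower with an unadjusted p under 0.05, against 7.57% of all genes tested, and none passed after adjustment (edgeR). Of 12 genes of sugar digestion and handling, 10 were above 0 (median 0.38), none past the threshold. With an unadjusted p under 0.05, 4 were higher and 1 lower (G6pc, -0.81), against 7.14% and 7.57% of all genes tested (edgeR).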
